A study of Mus musculus with 9 samples.

Results

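The genes described here encode the proteins of the cytosolic ribosome, in RNA sequencing of cultured mouse cortical neurons. They were chosen by symbol. Ensembl identifiers were matched to mouse symbols, and protein-coding genes named Rpl or Rps plus a number, or Rplp0 to Rplp2, were taken. This left out pseudogenes, the Rps6k kinases and Rpsa. It gave 82 genes among the 54232 in the files, 51 of the large subunit and 31 of the small subunit. The naming rule uses no measured value, although earlier results of these data were known when it was chosen.

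The cytosolic ribosome translates nearly all proteins of the cell. Its large subunit joins amino acids and its small subunit reads the messenger RNA, and most of the proteins are normally needed in equal number. Most ribosomal protein messages begin with a run of C and T bases, the 5′ terminal oligopyrimidine tract, through which mTORC1 and LARP1 adjust their translation. Mammalian genomes also carry many processed pseudogenes of these genes, which are near-identical copies made by reverse transcription. In neurons ribosomes serve the cell body and also dendrites and axons.

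The study compared cortical neurons of wildtype CD1 mice, an outbred stock, in 3 groups of 3 repeats. Control libraries carry the name PDL, PA libraries the name IKVAV, and PA + PS2 libraries the names IKVAV and PEDOT-S-OH. PA stands for peptide amphiphile, whose molecules carry a peptide head on a lipid-like chain. IKVAV is a short sequence of the matrix protein laminin, and PEDOT polymers conduct electricity. The series title speaks of conductive scaffolds and neuronal maturation. The treatment label reads peptide amphiphile for every library, controls included, so the groups follow the titles. The labels do not expand PDL or PS2 and give no amounts, times or ages. Whether each repeat was a culture of its own is not stated, and the p-values therefore measure the spread between these libraries, which may be technical. The molecule label gives polyA RNA, but the kit in the protocol is one for total RNA, and the selection of RNA is not settled.

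Each library held 20746851 to 27237398 counts, of which 83769 to 111986 fell on the 82 genes. The defining neuron markers matched the label, since the summed level of 14 of them was 8602 to 10801 CPM, the count scaled to library size, in the libraries and none was at 0. Markers of other cells were present at lower levels, at 184 to 304 CPM for 10 astrocyte genes and 3.85 to 9.0 CPM for 8 microglia genes. The 12 fibroblast and pericyte markers summed to 140 to 204 CPM in control, 95.6 to 169 CPM in PA and 13.6 to 58.9 CPM in PA + PS2. The 12 dividing cell markers summed to 151 to 317, 201 to 269 and 124 to 147 CPM in the same order. The 10 neural progenitor markers summed to 335 to 550, 414 to 491 and 279 to 309 CPM. These 3 lists were lower in every PA + PS2 library than in any control or PA library. Their part in the values below was not tested. In these bulk libraries, fewer cells of a type and less RNA per cell cannot be told apart.

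Sequences are shown for the start of transcription and for near-identical copies. The first set shows the region where transcription starts, with 18 bases before the start annotated by RefSeq on GRCm38 and 12 bases from it on. Capitals mark a run of C and T bases, as far as it lies in the window. The genes are the 5 with the highest level per kilobase among those with a run of at least 8 such bases that reaches within 5 bases of the start.
Rpl4, chr9:64173369-64173398, + strand: TCTTTCCTTTTCCTgtgggagcagccgggt
Rps9, chr7:3704023-3704052, + strand: ccaaccgccttgTCTCTCTTTgtctcgggc
Rps26, chr10:128626495-128626524, - strand: cgggtcgggcaagccgccggaTCCTCTTTC
Rplp2, chr7:141447633-141447662, + strand: cactgcgtcagcgTCTTCCTTTCgccgccg
Rpl15, chr14:18270975-18271004, - strand: attgtgggagaaagCCTTCTTCCTTTCCTC

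The promoter table of RefSeq held 62 of the 82 genes, and the run was looked for on the strand of the gene only. It was found in 24 of the 62, or 38.7%, against 11.4% of the 27025 genes in that table. An annotated start can lie some bases away from the start in use, so a window without a run says only that these letters are not there. Counted levels were alike with and without the run, with a median of 20.1 CPM per kilobase in 24 tested genes with it and 18.6 in 34 without.

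The second set shows how alike a gene and its copy can be. A stretch of 90 coding bases of Rps2 and of Rpl26 is set against the copy named with it, at the place in a single exon where the pair differs most. Capitals mark the bases that differ. The copies were named after their counts were seen.
Rps2, chr17:24720276-24720365, + strand: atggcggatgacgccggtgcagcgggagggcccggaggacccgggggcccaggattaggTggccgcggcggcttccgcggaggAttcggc
Rps2-ps13, chrX:52898588-52898677, + strand: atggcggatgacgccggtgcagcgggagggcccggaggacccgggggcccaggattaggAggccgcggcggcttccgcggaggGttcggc
Rpl26, chr11:68903179-68903268, + strand: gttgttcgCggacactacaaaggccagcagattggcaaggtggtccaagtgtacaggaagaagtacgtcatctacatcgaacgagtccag
Gm15772, chr5:3236599-3236688, + strand: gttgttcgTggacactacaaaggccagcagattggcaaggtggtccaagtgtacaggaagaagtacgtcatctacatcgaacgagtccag

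Over the whole coding region, Rps2 and its pseudogene on chromosome X differed at 7 of 879 bases. Rpl26 and its processed pseudogene Gm15772 on chromosome 5 differed at 2 of 435 bases. These sequences come from GENCODE M21 transcripts on mm10, the build named for the files.

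The counted levels of the 82 genes were very uneven. The share of reads on the 5 highest members was 44.3%, and all 82 together took 0.424% of the counts. After removal of genes with too few reads, 77 members remained, and their level per kilobase of transcript spanned 809-fold. The large subunit genes had a median of 15.4 CPM per kilobase over 47 tested genes, and the small subunit genes had 23.4 over 30.

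The highest levels per kilobase included those of Rpl8, Rpl22, Rpl4, Rplp1, Rps15, Rps9 and Rps3. Rpl8, a protein near the peptidyl transferase centre, stood at 486 ± 61.4 CPM per kilobase (SD over 9 libraries) and Rpl22 at 371 ± 24.5. Rpl4, which lines the exit tunnel of the growing chain, stood at 342 ± 15.8 and Rplp1 at 332 ± 47.2, and Rpl4 was the higher in 4 of 9 libraries. Rpl22 was above Rpl4 in 8 of 9 libraries, and the order of Rpl4 and Rplp1 did not hold beyond the spread of the libraries. Rps15 at 268 ± 31.4, Rps9 at 240 ± 28.7 and Rps3 at 214 ± 23.0 kept their order in all 9 libraries.

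The lowest members were Rpl10l, Rpl3l, Rpl39l, Rpl24, Rpl23a, Rps16, Rps29 and Rps23. Rpl10l, a paralogue known from the testis, had no read in any library, which allows a level of up to 0.11 to 0.145 CPM (3 counts in the deepest and the shallowest library). Rpl3l, the paralogue of striated muscle, had 9 reads in all, and Rpl39l, another testis paralogue, had 19. Rpl24 and Rps29 are proteins of the ordinary ribosome, yet they had only 52 and 61 reads over the 9 libraries. These 5 genes fell below the filter and have no test. Among tested members Rpl23a, a protein at the end of the exit tunnel, stood at 0.601 CPM per kilobase, Rps16 at 0.73 and Rps23, of the decoding centre, at 0.873.

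**Figure D1:**
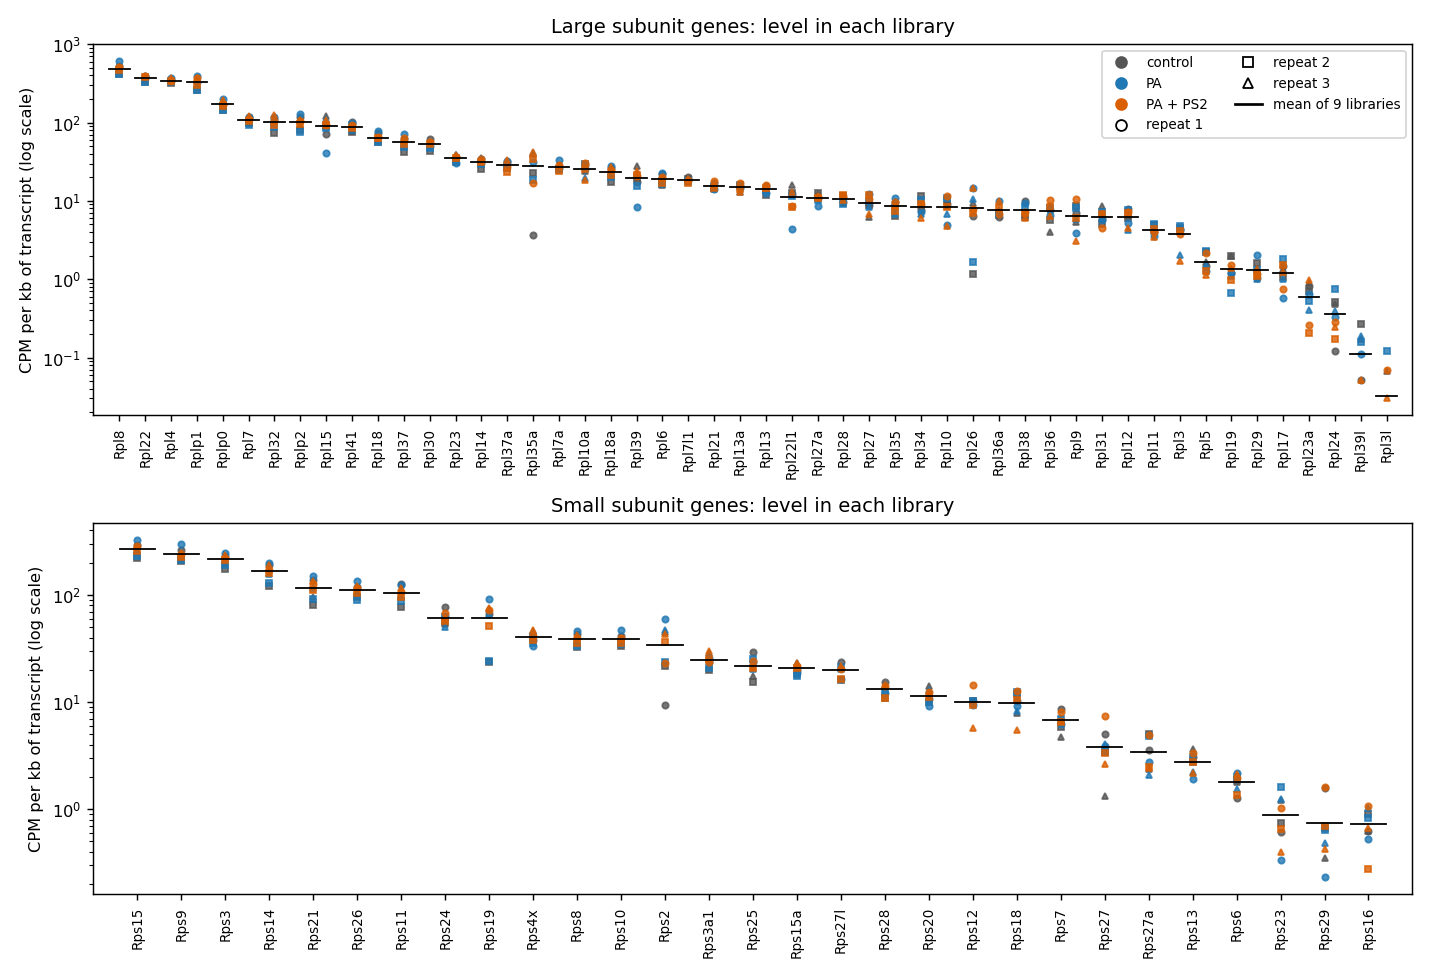
Level of the ribosomal protein genes reported here that had a read, in CPM per kilobase of transcript on a log axis, with large subunit genes above and small subunit genes below. Each symbol is 1 library, colour gives the group, shape gives the repeat and the bar is the mean of 9 libraries. Libraries at 0 are not drawn. Levels run from 486 for Rpl8 down to 0.0321 for Rpl3l, and the groups lie on top of each other for nearly every gene.

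The low counts went with sequence shared with other genes. For each member, the share of 50-base windows of its transcript that occur letter for letter in a transcript of another gene was computed. Over 77 tested members, Spearman's rho of this share and the level per kilobase was -0.58, and it was -0.64 and -0.67 for windows of 75 and 100 bases. This is a description across genes of the same libraries, which are not independent replicates. The share was 3.0% for Rps3 and 7.9% for Rpl8. It was 98.6% for Rps27, 95.1% for Rpl35, 93.8% for Rpl5, 93.3% for Rpl9 and 92.1% for Rpl10.

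The median was 60.7 CPM per kilobase in 11 tested members with under 25% shared, and 74.4 in 20 members with 25 to 50%. It was 14.1 in 24 members with 50 to 75% and 7.54 in 22 members with 75% or more. Rplp1, with 60% shared and 332 CPM per kilobase, and Rps16, with 41.6% shared and 0.73, went against the trend. What the counting did with reads that match several places is not given in the sources used here, and neither is the read length.

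**Figure D2:**
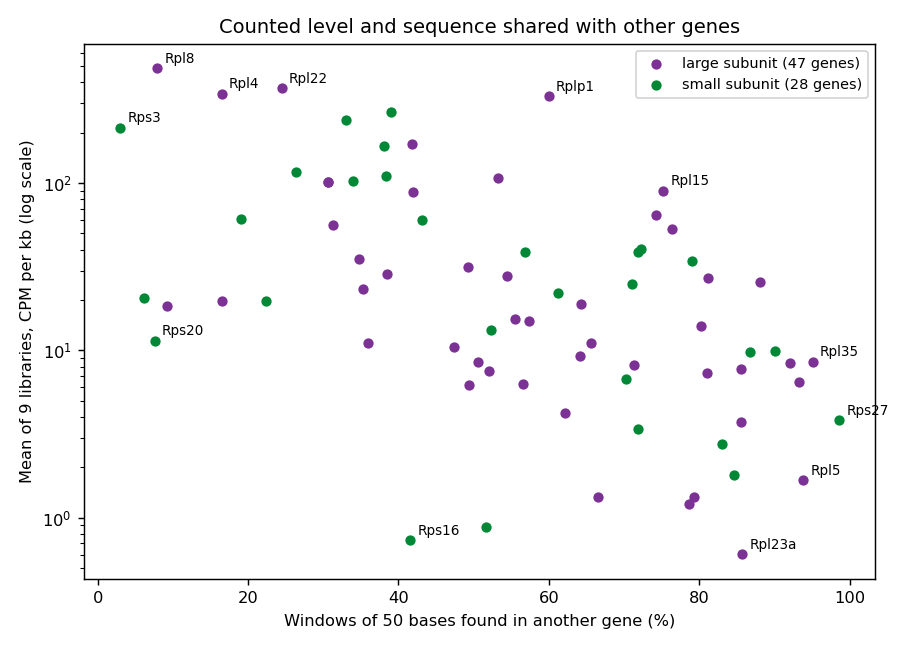
Mean level of the tested members reported here in CPM per kilobase, on a log axis, against the percent of 50-base windows of the transcript that are also found in another gene. Each point is a gene, in 1 colour for each subunit. Members with little shared sequence, such as Rps3 at 3.0% and Rpl8 at 7.9%, lie at the upper left, and members such as Rps27 at 98.6% and Rpl5 at 93.8% lie low on the right.

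Some members had a copy with more reads than the gene itself. Rps7, of the small subunit, had 1177 reads and the transcribed pseudogene Gm6472 had 5741, with 60.8% of the windows of Rps7 found in it. Rps28 had 1072 reads and Gm10263 had 2605, Rpl3 had 1067 and Rpl3-ps1 had 1524, and Rpl26 had 912 and Gm15772 had 2633. The 289 pseudogenes named after members took 13074 reads in all, equal to 1.45% of the reads on members, and 95 of them had no read. The pseudogenes with other names are not in that count. Exons of 15 members also overlapped another gene on the same strand by at least 100 bases, mostly small nucleolar RNAs of their introns. The strand setting of the counting is not stated, so antisense reads cannot be told apart. For these reasons the level of a member here is the number of reads assigned to it, which need not follow the amount of its message. Rps15a and Rps20 have reference transcripts of 5130 and 3706 bases, which lowers their level per kilobase.

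The comparison of PA with control asked whether the peptide scaffold changed the members. None of the 77 tested members passed in this comparison (edgeR quasi-likelihood test, Benjamini-Hochberg adjusted p under 0.05), against 0% of all 15712 genes tested. Their median log2 fold change was 0.02, with 42 above 0 and 35 below, and the median over all genes was -0.01. The middle 50% of members lay between -0.1 and 0.11. At an unadjusted p under 0.05 there were 0 members and 192 genes, and DESeq2 called 0 members and 0 genes. With the repeat added to the edgeR fit as a block, 3 members and 430 genes had an unadjusted p under 0.05. Members of at least 10 CPM had a median standard error of 0.14 on the log2 scale, and members under 10 CPM one of 0.31.

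Rpl4 had 537, 499 and 504 CPM in control repeats 1, 2 and 3, 563, 518 and 509 in PA and 521, 521 and 567 in PA + PS2. The groups overlapped, and the log2 fold change was 0.05 ± 0.09 (SE) for PA and 0.06 ± 0.09 for PA + PS2 against control (edgeR adjusted p 1.0 for both). Rpl8 had 442, 351 and 385 CPM in control, 522, 357 and 399 in PA and 434, 399 and 435 in PA + PS2. Repeat 2 was the lowest library of Rpl8 in each group, and the groups overlapped.

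Rps3, which lies at the entry of the messenger RNA channel, had 442, 337 and 389 CPM in control, 472, 360 and 403 in PA and 421, 402 and 454 in PA + PS2. Here too repeat 2 was the lowest library of each group, and the groups overlapped.

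The P-stalk is the arm of the large subunit that engages elongation factors, and it is built from Rplp0, Rplp1 and Rplp2. Rplp0 had 237, 199 and 238 CPM in control, 270, 197 and 231 in PA and 234, 219 and 266 in PA + PS2. Rplp1 had 164, 130 and 176 CPM in control, 193, 130 and 174 in PA and 186, 152 and 184 in PA + PS2. Rplp2 had 114, 76.7 and 86.4 CPM in control, 126, 74.0 and 100.3 in PA and 102, 91.3 and 105 in PA + PS2. The 3 genes were lowest in repeat 2 of each group, and their log2 fold changes for PA against control were 0.05 ± 0.13, 0.08 ± 0.16 and 0.11 ± 0.19 (SE).

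The 6 highest log2 fold changes of PA against control were those of Rps2 at 0.77 ± 0.47, Rpl26 at 0.66 ± 0.71, Rpl35a at 0.50 ± 0.59, Rpl36 at 0.43 ± 0.29, Rpl27 at 0.33 ± 0.25 and Rps23 at 0.32 ± 0.55. The 6 lowest were those of Rpl19 at -0.78 ± 0.38, Rpl23a at -0.62 ± 0.59, Rpl22l1 at -0.50 ± 0.33, Rpl39 at -0.50 ± 0.29, Rps13 at -0.39 ± 0.30 and Rpl10 at -0.30 ± 0.33. All of these had an edgeR adjusted p of 1.0. In the edgeR fit without the block, the smallest unadjusted p was 0.0603, for Rpl19. Rpl19 had 0.904, 1.48 and 1.47 CPM in control and 0.90, 0.503 and 0.827 in PA, so that the groups were barely apart and rested on few reads. Without the filter on low counts Rps2 passed in this comparison, at 0.79 with an edgeR adjusted p of 0.000107. With the filter its edgeR unadjusted p was 0.123. Its groups overlapped, with 9.33 to 44.6 CPM in control and 23.4 to 59.1 CPM in PA.

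For PA + PS2 against control, none of the 77 members passed, against 0.0446% of all genes (7 of 15712). The 7 genes all fell and were Cnn2, Col4a5, Col5a2, Hspg2, Palld, Sparc and Thbs1. The count was 0 without control repeat 2, control repeat 3 or PA + PS2 repeat 1, 2 and 1 without PA + PS2 repeats 2 and 3, 175 without control repeat 1 and 18 without PA repeat 1. With the repeat as a block the count over all genes was 184, and the count of members stayed at 0. The median log2 fold change of the members was 0.05, with 48 above 0 and 29 below, beside a median of 0.0 over all genes. At an unadjusted p under 0.05 there were 0 members and 884 genes, or 2 members and 1273 genes with the block. DESeq2 called 0 members and 232 genes.

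The 6 highest log2 fold changes were those of Rpl26 at 0.79 ± 0.71, Rpl36 at 0.53 ± 0.29, Rpl35a at 0.51 ± 0.59, Rps27 at 0.44 ± 0.48, Rps2 at 0.44 ± 0.47 and Rpl36a at 0.28 ± 0.23. The lowest included those of Rpl23a at -0.73 ± 0.60, Rpl22l1 at -0.45 ± 0.33, Rpl3 at -0.44 ± 0.35, Rpl19 at -0.40 ± 0.37 and Rps23 at -0.31 ± 0.57. Each had an edgeR adjusted p of 1.0. Rpl22, an RNA-binding protein of the large subunit, had 173, 157 and 172 CPM in control, 184, 158 and 180 in PA and 185, 183 and 189 in PA + PS2. Its PA + PS2 libraries were all above the control libraries, by 0.15 ± 0.09 on the log2 scale (edgeR adjusted p 1.0). Of the abundant members, those of at least 10 CPM, the lowest and highest log2 fold changes were -0.14 and 0.51. They were -0.50 and 0.77 for PA against control, and -0.34 and 0.55 for PA + PS2 against PA.

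For PA + PS2 against PA, again none of the 77 members passed, against 0% of all genes. The median of the members was 0.04, with 52 above 0 and 25 below, and that of all genes was 0.01. At an unadjusted p under 0.05 there were 0 members and 881 genes, or 4 members and 1461 genes with the repeat as a block. DESeq2 called 0 members and 136 genes. The highest members were Rpl39 at 0.55 ± 0.29, Rpl19 at 0.38 ± 0.38, Rpl15 at 0.30 ± 0.28, Rps27 at 0.23 ± 0.48, Rps13 at 0.20 ± 0.30 and Rps4x at 0.20 ± 0.12. The lowest included Rps23 at -0.63 ± 0.56, Rps2 at -0.34 ± 0.46, Rpl38 at -0.29 ± 0.25, Rpl29 at -0.26 ± 0.37 and Rps16 at -0.25 ± 0.49. The edgeR adjusted p was 0.999 for each. The 3 comparisons share libraries, so a gene high or low in 1 group appears in 2 of them.

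**Figure D3:**
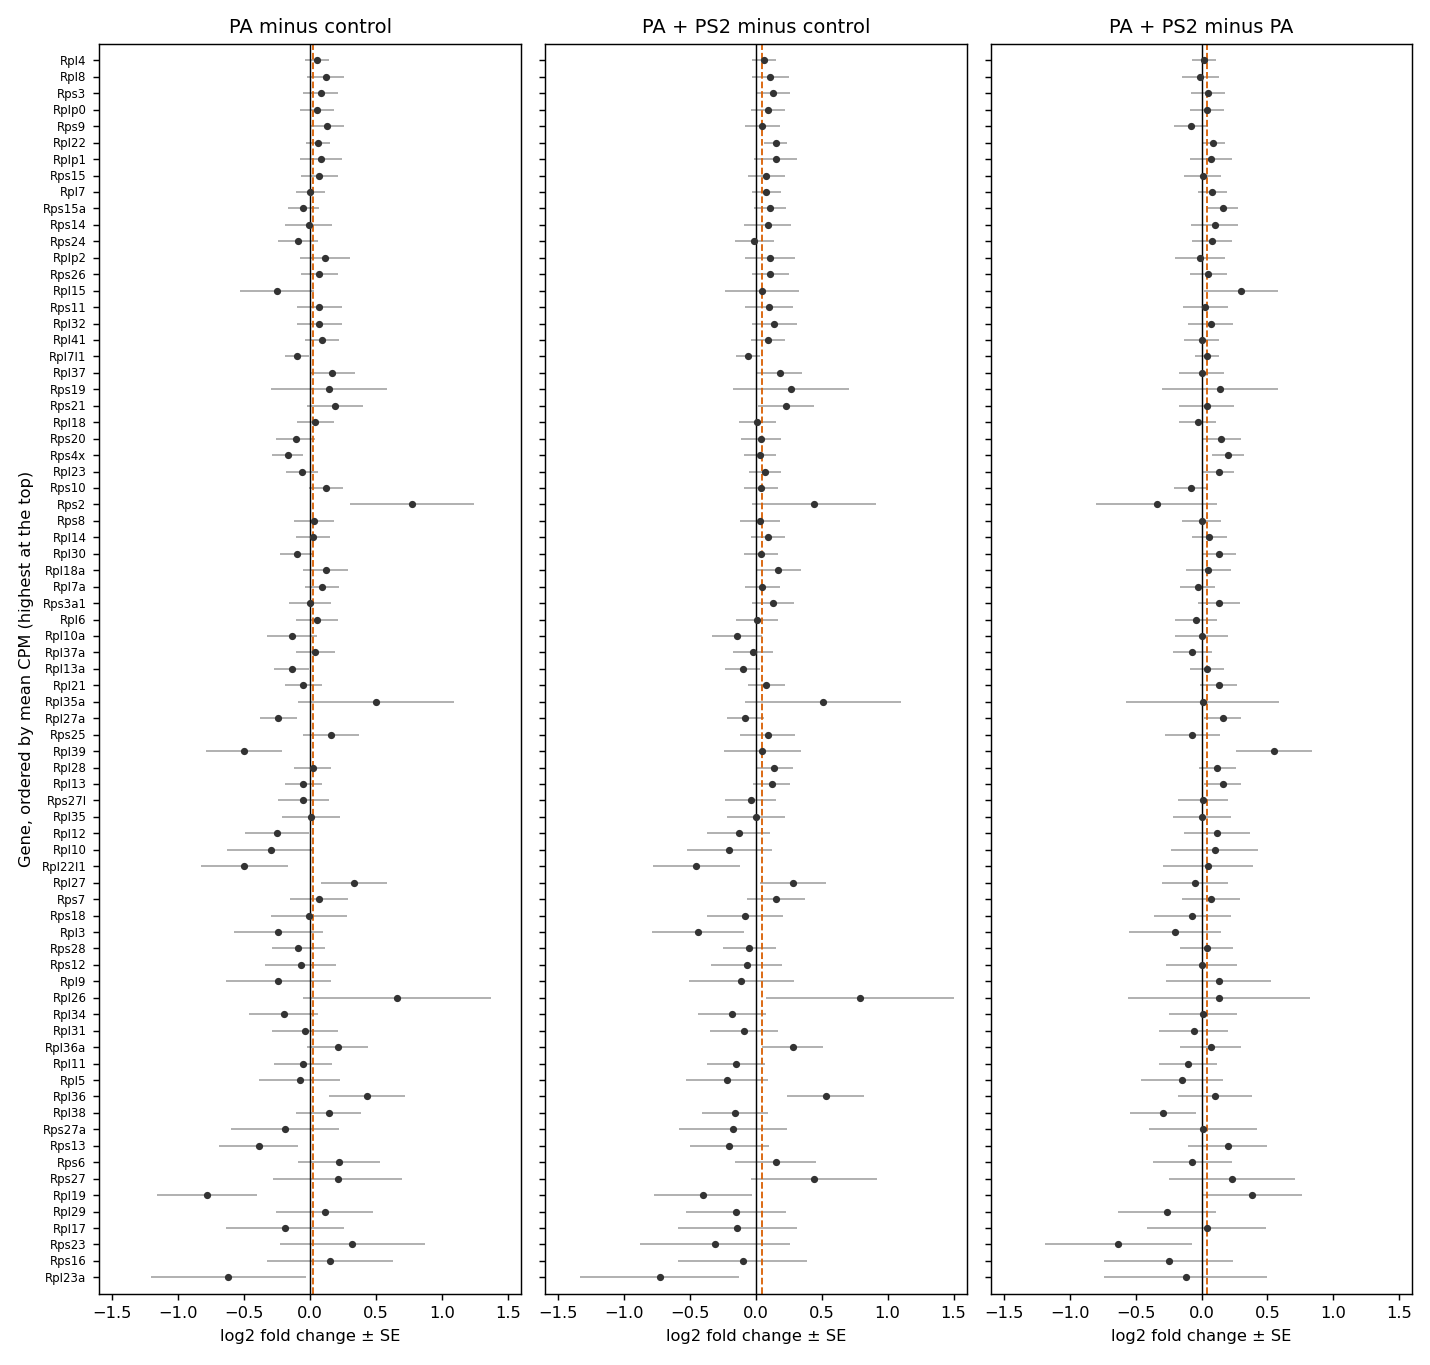
Log2 fold change of the tested members reported here in the 3 comparisons, with its standard error, ordered by mean CPM with the highest at the top. The dashed line is the median of all 77 tested members, at 0.02, 0.05 and 0.04. Most abundant members lie close to 0 with short bars, and most of the wide values belong to members with few reads. Rps2, Rps19, Rpl35a, Rpl15 and Rpl39 are wide as well, since their libraries differ within the groups.

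The summed level of the 82 genes was 4493, 3642 and 4201 CPM in control repeats 1, 2 and 3. It was 4799, 3745 and 4208 CPM in PA and 4422, 4095 and 4615 CPM in PA + PS2. Repeat 2 was the lowest in each group, and the groups overlapped. The means were 4112 ± 433, 4251 ± 528 and 4377 ± 263 CPM (SD, n = 3). The exact permutation test, 2-sided, gave p = 0.7 for PA against control, 0.5 for PA + PS2 against control and 0.8 for PA + PS2 against PA, and 3 libraries against 3 cannot give less than 0.1. Within repeats 1, 2 and 3, PA was above control by 306, 103 and 7 CPM, and Rpl4, Rpl8 and Rps3 were also higher in PA than in control in every repeat. Paired by repeat, the exact sign permutation test gave p = 0.25, the smallest that 3 pairs allow. Taken without the pairing, the difference of PA from control turned negative without PA repeat 1, at -135.1 CPM, and without control repeat 2, at -96.1 CPM, and that of PA + PS2 from PA turned negative without PA repeat 2, at -126.2 CPM.

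Paralogues of ribosomal proteins can replace their partner in the ribosome in some tissues, and the ratio within a library does not depend on its scaling. Of the 7 pairs, 4 had at least 10 reads of both genes in every library, giving 12 tests. Rpl22l1 stood at 0.0393, 0.0439 and 0.0513 of the CPM of Rpl22 in control, 0.0132, 0.0407 and 0.0389 in PA and 0.0258, 0.025 and 0.0379 in PA + PS2. The PA + PS2 libraries were all below the control libraries, and PA repeat 1 was the lowest of all. Rpl22l1 had 54 to 192 reads a library. Of the windows, 65.6% of those of Rpl22l1 and 24.5% of those of Rpl22 occur in another gene. The part of shared reads in this ratio was not tested. The mean difference of PA + PS2 from control was -0.62 ± 0.22 (SE) on the log2 scale, with an exact permutation p of 0.1, the smallest the design allows, and 0.6 after adjustment over the 12 tests.

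Rpl7l1, a relative of the large subunit protein Rpl7, had a ratio to it of 0.385, 0.424 and 0.409 in control, 0.353, 0.425 and 0.363 in PA and 0.375, 0.372 and 0.355 in PA + PS2. All PA + PS2 libraries were below the control libraries, by -0.14 ± 0.05 on the log2 scale, with an exact permutation p of 0.1 and an adjusted p of 0.6. The groups of PA overlapped both others.

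Rps27l, a p53 target in human and mouse cells, had 6.86, 6.78 and 22.3 times the CPM of Rps27 in control, 6.1, 9.11 and 7.32 in PA and 3.96, 7.13 and 11.9 in PA + PS2. The ratio above 1 rests on the few reads of Rps27, which ran from 0.46 to 2.55 CPM while Rps27l ran from 7.96 to 11.8, and 98.6% of the windows of Rps27 occur in another gene. Rps4l, a processed copy that the annotation calls a pseudogene, had 0.0824 to 0.194 of the CPM of the X-linked Rps4x. The groups of both pairs overlapped, and their exact permutation p lay between 0.6 and 0.9. Rpl3l, Rpl10l and Rpl39l had too few reads for a ratio.

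Members of at least 10 CPM differed between libraries about as often as other genes. The highest library was over 2-fold above the lowest in 5 of the 46 such members, or 10.9%, beside 7.25% of the 9257 genes of this level. The 5 were Rpl15, Rpl35a, Rpl39, Rps19 and Rps2. For each of them all 3 groups overlapped.

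Rps2, of the small subunit, had 9.33, 21.8 and 44.6 CPM in control, 59.1, 23.4 and 46.6 in PA and 23.0, 35.9 and 43.1 in PA + PS2. Its copy Rps2-ps13 had 22.6, 0.0 and 4.28 CPM in control, 7.15, 0.168 and 4.96 in PA and 16.4, 2.93 and 4.66 in PA + PS2. The copy was highest in control repeat 1 and PA + PS2 repeat 1, where Rps2 was the lowest of its group. PA went the other way, since its repeat 1 was the highest of the group for both Rps2 and the copy. With the reads of all 23 copies added to Rps2, a choice made after the values were seen, the span from lowest to highest library fell from 6.34-fold to 2.73-fold. Added reads can narrow a span whatever the copies do, and an exchange of reads between Rps2 and its copies was not tested.

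Rpl26 had 3.41, 0.609 and 4.97 CPM in control, 7.78, 0.88 and 5.52 in PA and 4.09, 3.70 and 7.69 in PA + PS2. The low values in control repeat 2 and PA repeat 2 rest on 14 and 21 reads. The copy Gm15772 had 12, 11.4 and 12.2 CPM in control, 12.4, 11.6 and 12.9 in PA and 15.1, 12.5 and 11.6 in PA + PS2. The copy stood above Rpl26 in every library and was not higher where Rpl26 was low. Even so, adding the reads of its 4 copies lowered the span of Rpl26 from 12.8-fold to 1.68-fold.

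Rps19, a protein needed to mature the small subunit and mutated in human Diamond-Blackfan anaemia, had 51.5, 18.2 and 57.3 CPM in control, 70.2, 18.7 and 50.9 in PA and 55.4, 39.4 and 58.8 in PA + PS2. It was lowest in repeat 2 of every group, and its span was 3.85-fold with or without its 4 copies. Rpl35a, of the large subunit, had 1.81, 11 and 19.2 CPM in control, 15.6, 9.17 and 20.2 in PA and 8.27, 16.6 and 20.5 in PA + PS2. It was highest in repeat 3 of every group, and control repeat 1 held only 44 of its reads.

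Rpl15, which carries the longest run of C and T bases among the sequences above, had 57.9, 72.0 and 95.8 CPM in control, 33.0, 68.6 and 88.5 in PA and 74.2, 73.9 and 86.2 in PA + PS2. Rpl39, at the end of the exit tunnel, had 10.8, 11.9 and 16.9 CPM in control, 5.04, 9.42 and 13.4 in PA and 12.8, 13.1 and 14.9 in PA + PS2. Both were lowest in PA repeat 1 and highest in repeat 3 of every group. Of the windows, 75.2% of those of Rpl15 and 16.5% of those of Rpl39 occur in another gene, and the part of shared reads in these differences was not tested.

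**Figure D4:**
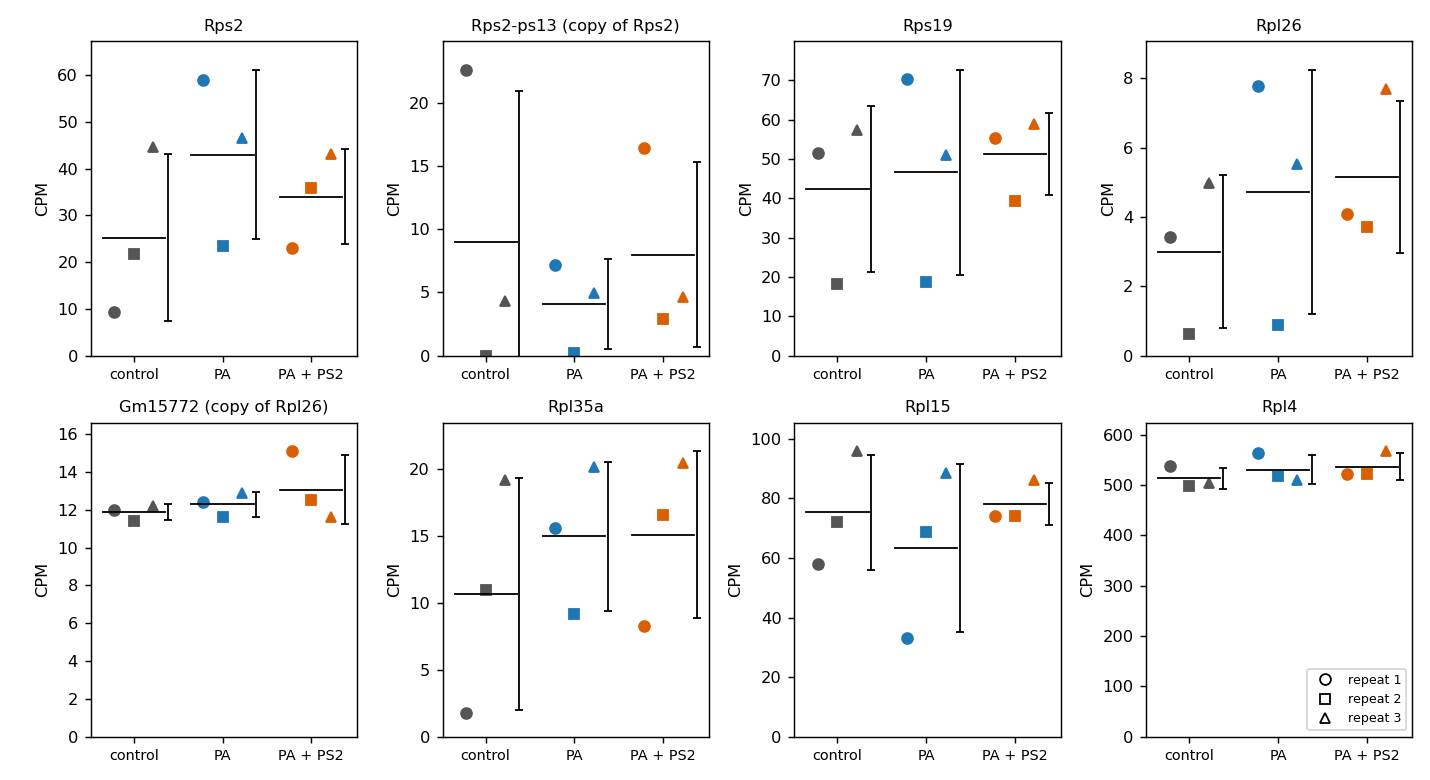
CPM of 6 members and 2 copies in each library, by group, with shape for the repeat, a line for the mean and a bar for the SD of 3 libraries. Every axis starts at 0. Rps2, Rps19, Rpl26 and Rpl35a spread widely inside a group, Gm15772 lies between 11.4 and 15.1, and Rpl4 lies between 499 and 567.

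The repeat numbers were compared as well. Repeat 1 against repeats 2 and 3, over all groups, gave 3 of 77 members that passed, or 3.9%, all higher in repeat 1, against 3.96% of all genes (622 of 15712). The 2 shares are close. The median of the members was 0.15 and that of all genes 0.0, and 57 members were above 0 and 20 below. At an unadjusted p under 0.05 there were 37.7% of the members and 27.3% of all genes. What the numbers mark is not stated in the labels. Other measures moved with this contrast. All 9 tested astrocyte markers, all 12 dividing cell markers (3 of them passed) and all 10 progenitor markers (1 passed) were below 0, with medians of -0.42, -0.31 and -0.31. The median of the 3 tested erythroid markers was 1.02, with 2 above 0 (1 passed) and 1 below. In the other lists, 1 neuron and 1 oligodendrocyte marker passed as lower, and 1 fibroblast and pericyte marker passed as higher. Mitochondrial reads were 0.531%, 0.342% and 0.786% of the counts in repeat 1 of control, PA and PA + PS2, the lowest of each group, and 0.837% to 1.39% in the other libraries. Their part in the result was not tested. With no scaling factor, 1 gene and 0 members passed. Without any one of the control libraries, 0 genes passed. The count of members also depends on single libraries, since 0 members passed without any one of the control libraries or without PA repeat 2 or 3. Of all genes, 1 and 3 passed without PA repeat 2 and 3. The count of members was 2 without PA repeat 1, beside 155 of all genes. It was 22, 1 and 6 without PA + PS2 repeat 1, 2 and 3, beside 3253, 13 and 1010 of all genes.

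The 3 genes were Rpl37, Rps21 and Rplp2. Rpl37 had 51.6, 60.2 and 53.4 CPM in the repeat 1 libraries of control, PA and PA + PS2, and 35 to 49.2 in the other 6. Its log2 difference was 0.37 ± 0.08 (edgeR adjusted p 0.0451). Rps21 had 54.7, 59.7 and 49.9 CPM in repeat 1 and 31.9 to 52.6 in the others, a difference of 0.43 ± 0.10 (edgeR adjusted p 0.0466), with PA + PS2 repeat 3 above PA + PS2 repeat 1. Rplp2 differed by 0.37 ± 0.09 (edgeR adjusted p 0.0488), again with PA + PS2 repeat 3, at 105 CPM, above PA + PS2 repeat 1, at 102. The lowest members were Rpl35a at -1.04 ± 0.40, Rpl15 at -0.59 ± 0.16, Rpl22l1 at -0.58 ± 0.22, Rpl17 at -0.54 ± 0.39, Rpl39 at -0.52 ± 0.17 and Rps23 at -0.48 ± 0.52, none of which passed. At the other end Rps27 at 0.85 ± 0.33, Rpl26 at 0.74 ± 0.37 and Rps19 at 0.68 ± 0.18 did not pass either.

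**Figure D5:**
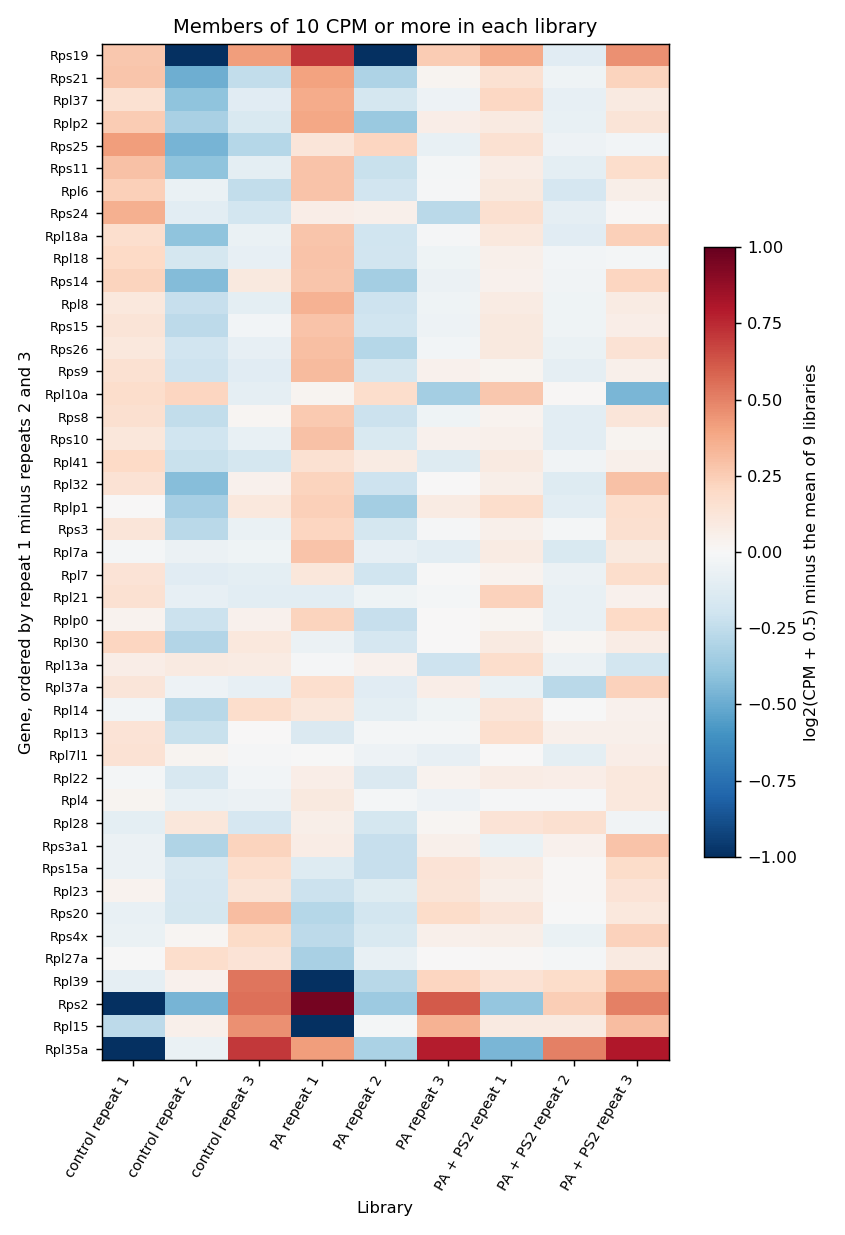
Level of the tested members of at least 10 CPM reported here in each library, as log2(CPM + 0.5) minus the mean of the 9 libraries, ordered by the difference of repeat 1 from repeats 2 and 3. Colours end at 1 and -1, and the darkest cells can lie beyond. The median of the tested members in repeats 1, 2 and 3 is 0.12, -0.16 and 0.02 in control, 0.08, -0.08 and -0.02 in PA and 0.10, -0.05 and 0.08 in PA + PS2, so repeat 3 of PA + PS2 is as high as repeat 1 of PA, whereas Rpl39, Rps2, Rpl15 and Rpl35a at the bottom follow other patterns.

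Most abundant members varied together over the 9 libraries, and some did not. The Pearson correlation of a member with the mean of the other members of at least 10 CPM was 0.97 for Rplp1, 0.96 for Rps19 and 0.95 for Rplp0. It was -0.55 for Rpl10a, -0.36 for Rpl13a and -0.32 for Rpl27a. The 9 points share groups, repeats and scaling, so these values are descriptions. Among 9211 other genes of at least 10 CPM, those most like the mean of the tested members were Tm2d2 at 0.95, Coa3 at 0.93, Psma5 at 0.92, Ehmt1 at 0.90 and Wdr11 at 0.90.

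The 5 cytosolic ribosomal proteins outside the naming rule showed no member past the test in any comparison. The share of all genes that passed was at most 3.96%, in the repeat contrast. Rpsa, also known as a laminin receptor precursor, had 4.19, 4.78 and 3.54 CPM in control, 3.78, 3.35 and 3.27 in PA and 4.38, 3.32 and 3.95 in PA + PS2. Its log2 fold change was -0.27 ± 0.21 for PA and -0.11 for PA + PS2 against control. Rack1, a scaffold on the small subunit, was the most abundant of them, with a mean of 456 CPM and log2 fold changes of 0.06 and 0.07. Fau, which encodes the small subunit protein eS30 fused to a ubiquitin-like protein, was at 0.29 ± 0.21 for both PA and PA + PS2 against control.

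The wider pathway was read from gene lists. Of 36 translation and elongation factors and other messages with such starts, 40 ribosome biogenesis factors, 30 subunits and factors of RNA polymerases I and III, and 22 genes of mTORC1 and LARP1, none passed in the 3 comparisons of groups. Neither did any of 17 tested chaperones and quality control factors, 14 p53 targets, 9 tested hosts of small nucleolar RNAs or 77 tested mitochondrial ribosomal proteins. Of all 15712 genes, 0% passed for PA against control, 0.0446% for PA + PS2 against control and 0% for PA + PS2 against PA. A count of 0 in these lists is therefore close to the share over all genes. For PA + PS2 against control their medians ran from -0.03 for the snoRNA hosts to 0.06 for the translation factors, beside 0.0 for all genes.

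For the mitochondrial ribosomal protein genes, the smallest p-values were those of Mrps30 for PA against control, at -0.32 ± 0.15 (edgeR adjusted p 1.0), and of Mrpl30 for PA + PS2 against PA, at 0.29 ± 0.10 (edgeR adjusted p 0.513). Among genes of mTORC1 and LARP1, Sesn2, an inhibitor of mTORC1, had 29.9, 28.0 and 23.1 CPM in control, 27.8, 24.2 and 22.5 in PA and 37.7, 32.9 and 31.1 in PA + PS2. Every PA + PS2 library was above the others, by 0.45 ± 0.13 on the log2 scale against PA (edgeR adjusted p 0.421). Deptor, another inhibitor of mTOR, was at 0.53 ± 0.18 in the same comparison (edgeR adjusted p 0.583).

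Among p53 targets, Bbc3, which promotes cell death, had 25.7, 22 and 20 CPM in control, 30.9, 21.7 and 23.0 in PA and 34.6, 33.5 and 30.7 in PA + PS2. Its log2 fold change for PA + PS2 against control was 0.54 ± 0.15 (edgeR adjusted p 0.234), and 0.55 ± 0.10 with the repeat as a block (edgeR adjusted p 0.0311). Btg2, which restrains growth, was at -0.71 ± 0.18 (edgeR adjusted p 0.204), with 0.0246 by DESeq2. Gtse1, which is expressed in dividing cells, was at -0.92 ± 0.27 (edgeR adjusted p 0.313). The dividing cell markers were lower in the same libraries, as given above.

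In repeat 1 against repeats 2 and 3, 5 of the 250 tested genes of the lists passed, or 2.0%, against 3.96% of all genes. Nacad was at 0.29 ± 0.07 (edgeR adjusted p 0.0466). The other 4 fell, and they were Npm1, a nucleolar factor of ribosome assembly and a TOP message, at -0.70 ± 0.13, Nop58 of the box C/D particles at -0.44 ± 0.09, Trp53inp1 at -0.65 ± 0.12 and Eda2r at -1.18 ± 0.29 (edgeR adjusted p 0.0451, 0.0451, 0.0451 and 0.0488). No gene of these lists passed without the group term.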

How the data were processed

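RNA was measured in 9 libraries. The authors deposited raw counts per Ensembl gene, and per the submitters' processing notes the tools were cutadapt 4.2, STAR 2.7.5, HTSeq 2.0.2 and DESeq2 1.14.1 with build mm10. Their settings are not given in the sources used here. Symbols, coordinates and transcripts came from GENCODE M21 (the principal transcript with the best support, then the shortest), and promoter sequences from RefSeq (GRCm38.p6).

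The deposited counts were tested with edgeR 4.0.16 in R 4.3.3 (quasi-likelihood F test, 2-sided, TMM, filterByExpr, minimum count 10, minimum total 15), on all 9 libraries, with p-values adjusted by Benjamini-Hochberg over 15712 genes at a threshold of 0.05. The standard error is the log2 fold change over the root of F. Summed levels and ratios had exact permutation tests. DESeq2 1.42.0 was an alternative, and other choices are given below. The test was checked on simulated data.

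Genes named are the 8 highest and 8 lowest members per kilobase, in each comparison the 6 highest, the 6 lowest and the 4 smallest p, all paralogues, all members below the filter, and up to 3 genes a list. A few genes under this rule are in the fits and counts but are not reported here by name or drawn. The members and lists were chosen with earlier results of these data known. Members under 10 CPM had the wider standard errors, and the part of depth in this was not tested.

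Libraries with the same repeat number deviated together from their group means, with correlations of 0.422, 0.365 and 0.28 for PA and control and 0.183, 0.217 and 0.135 for PA + PS2 and control. The pairing of these comparisons is read from the data alone, and the meaning of the numbers is not in the labels.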

Additional observations from a re-analysis of the deposited data

How the results depend on the processing

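No member passed in the 3 comparisons of groups under any alternative, except Rps2 in PA against control without the filter on low counts (1 member). The members' medians moved by less than 0.11 on the log2 scale, the SD of the library medians over repeats. The counts over all genes moved more. Without the filter every gene with a read was tested. The counts were then 23 for PA against control, 365 for PA + PS2 against control and 330 for PA + PS2 against PA. For repeat 1 against repeats 2 and 3 the count was 2004, with 20 members. With DESeq2 the counts were 232, 136 and 1712 of 15712 genes for the last 3 comparisons. In the repeat contrast DESeq2 called 12 of 77 members and 24 of 250 list genes. For PA + PS2 against control it called 1 list gene. For PA + PS2 against control, DESeq2 size factors gave 17, no scaling factor 2 and the fit of only those groups 28. In the repeat contrast, no scaling factor gave 1 gene and 0 members, and the fit without the group term gave 42 genes, 0 members and 0 list genes.

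The replicate block gave 184 genes for PA + PS2 against control, with 1 list gene. For PA + PS2 against PA it gave 57 genes, although repeat 1 of these groups did not deviate together (correlation 0.0147), so the pairing holds there in part only. The block changed no other count of calls.

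Leaving out each library in turn gave 0 to 175 genes for PA + PS2 against control , 0 to 37 for PA + PS2 against PA, 0 to 3253 in the repeat contrast and 0 to 22 members in it. The summed level differed by -135.1 to 391.8 CPM for PA against control and by -126.2 to 400.6 CPM for PA + PS2 against PA. The cause was not tested.

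For single genes, leaving out each library in turn turned the sign of the following log2 values, given as the lowest and the highest. For PA against control these were Rpl35a (-0.01 to 1.23) and Rps23 (-0.10 to 0.73), and for PA + PS2 against control Rps23 (-0.68 to 0.03) and Rps27 (-0.11 to 0.89). For PA + PS2 against PA they were Rpl29 (-0.47 to 0.06), Rps16 (-0.73 to 0.14), Rpl15 (-0.01 to 0.63) and Rps27 (-0.32 to 0.49), and in the repeat contrast Rps23 (-1.31 to 0.16). Rpl19 was at -0.20 for PA + PS2 against PA with named pseudogenes added. The ratio of Rpl7l1 to Rpl7 ran from -0.10 to 0.04 and that of Rpl22l1 to Rpl22 from -0.46 to 0.36 for PA + PS2 against PA. That of Rps27l to Rps27 ran from -0.74 to 0.12 for PA against control, -0.93 to 0.03 for PA + PS2 against control and -0.48 to 0.31 for PA + PS2 against PA, and that of Rps4l to Rps4x from -0.09 to 0.43, -0.14 to 0.35 and -0.30 to 0.19. Members under 10 CPM had the wider standard errors, with a median of 0.31 for PA against control beside 0.14 for members of at least 10 CPM. The parts of depth and of shared sequence in this were not tested.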
